A study of Mus musculus with 12 samples.

Results

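Untreated MTEC1 cells were profiled in 3 total RNA libraries, and every value here comes from those 3 libraries alone. MTEC1 is a mouse line that its labels place in the medullary epithelium of the thymus, with a wild-type genotype. The cells grew in DMEM with 10% fetal bovine serum and antibiotics at 37 °C and 5% CO2, and received no agent. The series design gives 6 h of culture for the control cells. The 3 libraries are part of a series of 12, in which 3 further total RNA libraries came from cells treated with PAMK and 6 were small RNA libraries; these 9 are not analysed here. All libraries come from 1 line, and nothing in the labels says whether the 3 untreated libraries came from separate cultures, so the spread between them may be technical.

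The epithelium of the thymus forms the niche in which T cells mature. Cortical epithelial cells supply Notch ligands, IL-7 and chemokines and process self peptides with a thymus-specific proteasome subunit. Medullary epithelial cells depend on signals through the lymphotoxin beta receptor, RANK and CD40, and display tissue-restricted antigens under the control of Aire and Fezf2. Both types keep the hallmarks of epithelium, which are keratin filaments, EpCAM, E-cadherin and tight junctions.

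Expression was read as FPKM, fragments per kilobase of transcript scaled to the size of the library, a unit inferred from the layout of the tables, and transcripts of the same gene name were summed. The mRNA table holds 59215 transcripts of 21771 genes, and the lncRNA table holds 42870 transcripts. Library sums were 133684, 140958 and 145035 FPKM in the mRNA table and 83490, 85546 and 88531 FPKM in the lncRNA table. The fragments behind each value are unknown, so no counting interval can be given. Across genes, which are not replicates, Pearson r of log2(FPKM + 1) lay between 0.947 and 0.949 for the 3 pairs of libraries. All 13 genes of the mitochondrial genome are listed at 0 in each library, although every respiring cell uses them, so a gene at 0 is written here as listed at 0 and not as silent.

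A gene was counted as expressed where it reached 1 FPKM in each of the 3 libraries. By that rule 7083 genes were expressed, which is 32.5% of the table, and 7750 genes were listed at 0 in all 3 libraries. Another 1940 genes reached 1 FPKM in some libraries and not in others. At higher levels, 2080 genes were at 10 FPKM or more in each library and 188 at 100 FPKM or more. The median of the gene means was 0.161 FPKM over all genes and 6.45 FPKM over the expressed ones.

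The label of an epithelial line was set against 46 general epithelial genes, and 2 of them (4.35%) were expressed, against 32.5% of all genes. The members had a median of 0.00545 FPKM. Of the 46, 20 were listed at 0 in every library, against 35.6% of all genes. Epcam, the adhesion protein that marks nearly all simple epithelia, was listed at 0 in all 3 libraries, as were Krt5 and Krt14, the keratin pair of basal epithelial cells. Trp63, the master factor of stratified epithelium, and Esrp1, a splicing regulator of epithelial isoforms, were also listed at 0 throughout. Cdh1, which encodes E-cadherin, had 0.00826, 0 and 0.0234 FPKM.

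Krt8 and Krt18 form the keratin pair of simple epithelia, and neither reached 1 FPKM in any library. Krt8 had 0.1803, 0.256 and 0.165 FPKM, so that the 3 libraries were alike at a level far below the threshold. Krt18 had 0.0293, 0 and 0 FPKM and was listed at 0 in 2 of the 3. Of 53 keratin genes, 46 were listed at 0 in all libraries, against 35.6% of all genes, and 1 was expressed, against 32.5%. That gene was Krt80, a keratin of differentiating epithelia, at 1.98, 4.95 and 8.17 FPKM, lowest in library 1 and highest in library 3.

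Both expressed members of the epithelial list encode cell adhesion proteins. Cdh3, which encodes P-cadherin, had 14.8, 16.2 and 16.3 FPKM, a mean of 15.8 ± 0.87001 (SD, n = 3). F11r, the junctional adhesion molecule A, had 7.42, 7.71 and 7.17 FPKM, a mean of 7.43 ± 0.267 (SD, n = 3). The levels of both differed little between libraries. Among 23 claudin genes, whose products seal tight junctions, only Cldn12 was expressed, at 26.7, 35.01 and 34.7 FPKM, while Cldn3, Cldn4 and Cldn7 did not pass 0.0364 FPKM. Of 23 cadherin genes 2 were expressed, Cdh3 and Cdh2, and of 11 laminin chains 2, Lamc1 at 31.7, 32.3 and 27.1 FPKM and Lamb1 at 24.2, 24.5 and 23.7 FPKM. Over all genes the expressed share was 32.5%.

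The promoters of 4 of these genes at or near 0 and of the abundant gene Vim are shown because these genes are defining markers of their lists. RefSeq entries on GRCm38.p6, from 250 bases before to 50 after the start, were matched for 25 of the 46 epithelial genes and 34 of 54 mesenchymal genes. The E-box CAGGTG, a sequence that Snail and Zeb repressors are known to bind, was searched on both strands and is in capitals for the 4 epithelial genes. For Vim the capitals mark the hexamer TATAAA, found at the core of many promoters. The Krt8 sequence holds TATAAA too, left in lower case, so the capitals do not set Vim apart. The regions are chr17:87635729-87636028 on the plus strand for Epcam, chr15:102004293-102004592 on the minus strand for Krt8, chr15:102027966-102028265 on the plus strand for Krt18, chr15:101712856-101713155 on the minus strand for Krt5 and chr2:13574061-13574360 on the plus strand for Vim.
Epcam: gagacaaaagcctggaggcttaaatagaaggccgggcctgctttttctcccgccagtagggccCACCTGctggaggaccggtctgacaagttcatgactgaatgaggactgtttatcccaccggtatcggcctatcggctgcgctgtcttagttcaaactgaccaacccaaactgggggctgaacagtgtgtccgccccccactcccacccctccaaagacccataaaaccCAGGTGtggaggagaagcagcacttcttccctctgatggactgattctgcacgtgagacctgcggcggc
Krt8: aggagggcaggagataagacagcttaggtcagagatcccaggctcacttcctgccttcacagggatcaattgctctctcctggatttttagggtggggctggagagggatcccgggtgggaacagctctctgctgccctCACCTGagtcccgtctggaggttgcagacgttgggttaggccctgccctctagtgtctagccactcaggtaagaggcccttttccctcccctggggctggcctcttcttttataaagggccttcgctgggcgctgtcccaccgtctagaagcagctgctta
Krt18: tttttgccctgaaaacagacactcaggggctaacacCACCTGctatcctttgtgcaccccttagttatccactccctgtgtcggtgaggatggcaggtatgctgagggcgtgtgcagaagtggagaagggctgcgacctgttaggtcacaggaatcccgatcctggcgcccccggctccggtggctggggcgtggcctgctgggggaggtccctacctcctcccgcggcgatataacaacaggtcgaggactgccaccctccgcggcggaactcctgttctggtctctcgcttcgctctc
Krt5: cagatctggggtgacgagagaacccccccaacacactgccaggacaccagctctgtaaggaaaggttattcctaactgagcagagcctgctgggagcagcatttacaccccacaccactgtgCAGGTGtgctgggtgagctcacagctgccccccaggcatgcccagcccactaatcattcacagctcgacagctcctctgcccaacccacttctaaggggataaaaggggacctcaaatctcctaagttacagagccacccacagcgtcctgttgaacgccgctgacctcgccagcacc
Vim: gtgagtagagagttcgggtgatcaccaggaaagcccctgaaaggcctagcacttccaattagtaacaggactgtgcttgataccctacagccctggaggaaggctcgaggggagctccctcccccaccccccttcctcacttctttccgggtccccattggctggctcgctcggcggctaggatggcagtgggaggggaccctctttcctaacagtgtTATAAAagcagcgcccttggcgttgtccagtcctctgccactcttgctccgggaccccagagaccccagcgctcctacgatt

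Epcam holds 2 copies of CAGGTG and each of the 3 keratin promoters 1. Over the epithelial list 24 of 31 promoters (77.4%) hold it, against 6 of 42 promoters (14.3%) of the mesenchymal list and 20.2% of all 32851 promoters. The share was 15.9% for promoters of expressed genes, 22.7% for genes listed at 0 throughout and 6.25% for the 100 most abundant genes. TATAAA, which does not overlap with CAGGTG in sequence, is in 9.68% of the epithelial and 21.4% of the mesenchymal promoters, against 13.6% of all. In all 5 motifs were searched. GGGCGG, the GC box, is in 61.3% of the epithelial, 52.4% of the mesenchymal and 35.7% of all promoters, and in 66.0% of those of expressed genes. CCAAT is in 19.4% of the epithelial, 33.3% of the mesenchymal and 37.4% of all promoters, and TGANTCA, the AP-1 motif, in 12.9% of the epithelial, 9.52% of the mesenchymal and 7.81% of all. Median GC content was 60.7% for the epithelial, 55.7% for the mesenchymal and 52.7% for all promoters. A match is a description of these letters and shows no binding.

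Of 22 genes of medullary thymic epithelium, 2 were expressed (9.09%), against 32.5% of all genes. In all libraries 14 were listed at 0, against 35.6% of all genes. Aire and Fezf2, the regulators of tissue-restricted antigens, were listed at 0 in all 3, as were Tnfrsf11a, which encodes RANK, and Cd40. The expressed members were Ltbr, the lymphotoxin beta receptor, at 29.03, 31.1 and 29.8 FPKM, and Pdpn, podoplanin, at 6.35, 6.91 and 7.35 FPKM. Pdpn also stands in the mesenchymal list. Relb, an NF-kB subunit needed for medullary development, had 0.503, 0.527 and 0.509 FPKM, even across libraries and below the threshold. None of 20 tissue-restricted antigen genes was expressed, and 15 of them were listed at 0 throughout.

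Among 14 cortical genes 3 were expressed (21.4%), against 32.5% of all genes, and 4 were listed at 0 throughout, as were 35.6% of all genes. Ctsl, the lysosomal protease cathepsin L, had 23.8, 33.4 and 36.4 FPKM, lowest in library 1. Ccl25, the chemokine that draws in thymocyte progenitors, had 2.37, 2.405 and 1.96 FPKM, and Ly75, the endocytic receptor DEC-205 used to mark cortical epithelium, had 1.95, 2.09 and 1.92 FPKM. The defining genes were at or near 0. Psmb11, the thymoproteasome subunit, had 0.0215, 0.0242 and 0 FPKM, and Foxn1, the master factor of thymic epithelium, had 0, 0 and 0.0206 FPKM. Dll4, the Notch ligand, and Il7 were listed at 0 in all 3 libraries.

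Of 14 factors of thymus organogenesis 4 were expressed, a share of 28.6% against 32.5% of all genes. Six4, a homeobox factor of the pharyngeal region, had 10.3, 9.75 and 9.31 FPKM. Fgfr2, a receptor for FGF7 and FGF10 in its epithelial form, had 1.58, 4.4004 and 2.48 FPKM. Pax1, Pax9, Eya1 and Tbx1, which pattern the pharyngeal pouches, were listed at 0 in all 3 libraries.

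Of 54 mesenchymal genes 33 (61.1%) were expressed, against 32.5% of all genes, with a median of 3.85 FPKM. Vim, the intermediate filament of mesenchymal cells, had 101, 143 and 92.5 FPKM and ranked 183rd of all genes by mean. Col3a1, a fibrillar collagen, had 60.3, 74.6 and 61.02 FPKM, and Col1a1 had 37.3, 28.3 and 37.3 FPKM. Lox, which crosslinks collagen, had 68.01, 69.8 and 68.4 FPKM, Timp2, a metalloproteinase inhibitor, 130.2, 138 and 139 FPKM and Spp1, osteopontin, 189.6, 191 and 202 FPKM. S100a4, a calcium-binding protein of motile cells, was the most abundant member with 298, 314 and 323 FPKM. Vim, highest in library 2, and Col1a1, lowest in library 2, varied the most of these 7 genes. Cultured lines of many origins express vimentin. The values of the 7 genes describe the cultures and do not assign them to a cell type, which was not tested.

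A few members of the same list were discordant between libraries. Sparc, a matrix protein, had 166, 4.47 and 169 FPKM, with library 2 far below the other two. Col1a2, the partner chain of Col1a1, had 0.0143, 81.02 and 61.7 FPKM over its mRNA transcripts. That value was near 0 in library 1, where Col1a1 was not low. Noncoding transcripts under the name Col1a2 had signal in each library, the highest at 7.55 FPKM in library 1, 3.68 in library 2 and 3.36 in library 3. Fn1, fibronectin, had 15.3, 27.4 and 4.32 FPKM, lowest in library 3. For Sparc, the transcript ENSMUST00000018737 had 133, 1.07 and 165 FPKM. Whether the assignment of reads to transcripts moved these values was not tested.

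The list also held members at or near 0. Pdgfrb, a receptor of pericytes and fibroblasts, had 0.291, 0.242 and 0.304 FPKM, and Thy1, an antigen of fibroblasts and of thymocytes, had 0.0169, 0.0335 and 0.0259 FPKM. Dcn, decorin, had 0.868, 0.737 and 0.929 FPKM, just under the threshold in each library. Lum, Postn, Cdh11, Tcf21, Fbln1 and Myl9 were listed at 0 in all 3 libraries. Of the 44 collagen genes 11 were expressed, against 32.5% of all genes. Col5a1, at 37.3, 31.4 and 30.4 FPKM, and Col8a1, at 23.97, 25.1 and 22.4 FPKM, were among the higher ones.

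Of 14 transcription factors known to drive the transition from epithelial to mesenchymal states, 7 were expressed (50.0%), against 32.5% of all genes. Twist2 had 17.3, 17.6 and 19.1 FPKM and Twist1 12.7, 13.6 and 14.3 FPKM, both basic helix-loop-helix factors of mesoderm. Snai1 had 1.98, 2.37 and 2.18 FPKM and Snai2 2.61, 2.03 and 2.71 FPKM, zinc finger repressors of E-cadherin. Zeb2 had 4.32, 3.33 and 2.24 FPKM and was expressed, whereas Zeb1 had 0.302, 5.18 and 6.28 FPKM and fell short in library 1. Cdh2, which encodes N-cadherin, was expressed at 11.2, 10.5 and 10.3 FPKM beside the near-zero values of Cdh1.

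**Figure D1:**
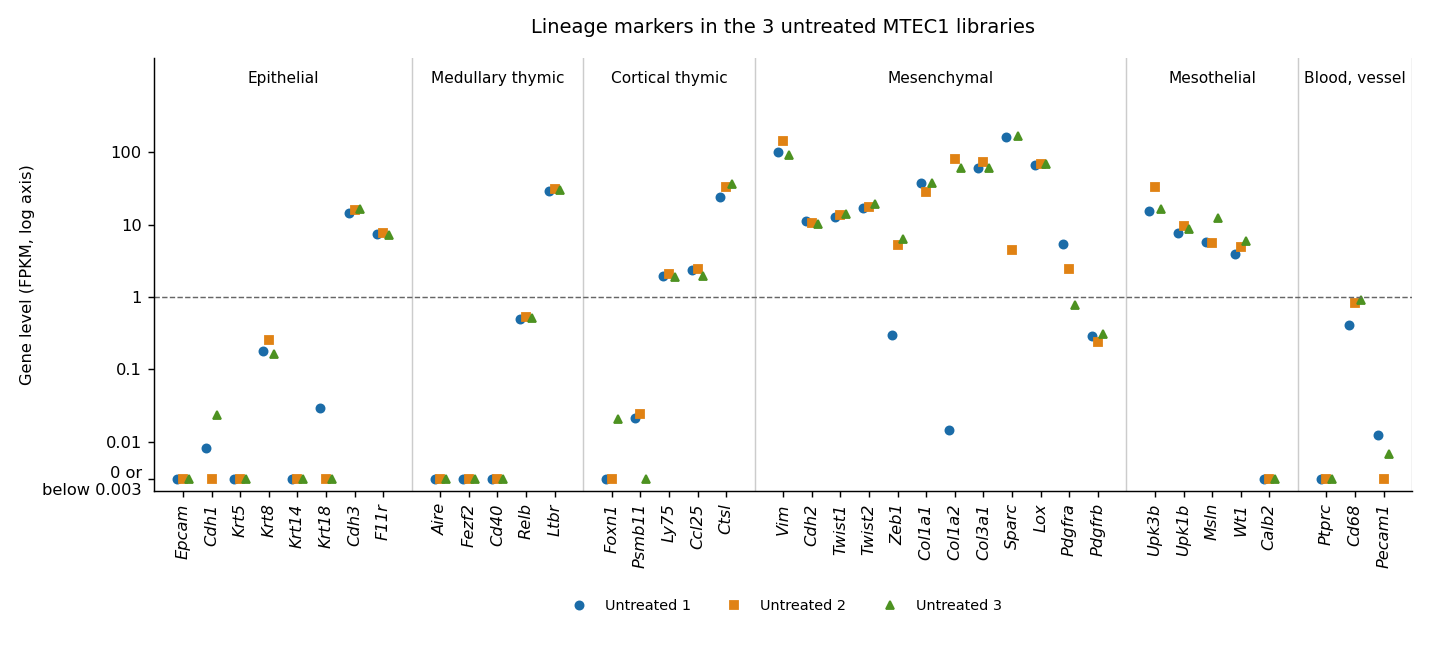
Gene level in FPKM on a log axis for lineage markers, with 1 point per untreated library and the dashed line at 1 FPKM. Epcam, Krt5, Krt14, Aire, Fezf2 and Cd40 lie on the floor that stands for 0, while Cdh3, F11r, Ltbr, Ctsl, the Twist genes, Vim and Col3a1 lie above the line in all 3 libraries and Zeb1, Col1a2 and Sparc split between libraries.

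Markers of other cell types that a culture could hold were mostly at or near 0. No member of 28 haematopoietic genes was expressed, against 32.5% of all genes. Of these 28, 16 were listed at 0 throughout, against 35.6% of all genes, including Ptprc, which encodes CD45. The summed level of the 28 was 0.827, 1.24 and 1.37 FPKM. Cd68, a lysosomal protein of macrophages and other cells, was the highest member at 0.4104, 0.821 and 0.91003 FPKM. No member of 16 endothelial genes was expressed, with sums of 0.334, 0.140 and 0.374 FPKM and Pecam1 at no more than 0.0124 FPKM. In bulk RNA, fewer cells of a type and less RNA per cell cannot be told apart. The neural list had 1 of 14 members expressed, Ncam1 at 3.46, 4.06 and 1.49 FPKM, and the muscle list 1 of 15, Acta2 at 5.84, 17.7 and 20.3 FPKM. Of 15 bone, cartilage and fat genes 2 were expressed, among them Runx2, a factor of bone-forming cells, at 22.1, 22.3 and 22.8 FPKM, while Sp7 and Sox9 did not pass 0.121 FPKM.

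Of 8 mesothelial genes 4 were expressed (50.0%), against 32.5% of all genes. Upk3b and Upk1b, uroplakins found in mesothelium and urothelium, had 15.6, 33.5 and 16.7 FPKM and 7.797, 9.53 and 8.62 FPKM. Msln, mesothelin, had 5.74, 5.65 and 12.6 FPKM, and Wt1, a zinc finger factor of mesothelium and kidney, had 4.0002, 4.86 and 6.005 FPKM. Upk3b was highest in library 2 and Msln in library 3. Calb2, Muc16 and Gpm6a, further markers of mesothelium, were listed at 0 in all 3 libraries, so the list was split between expressed members and members listed at 0.

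**Figure D2:**
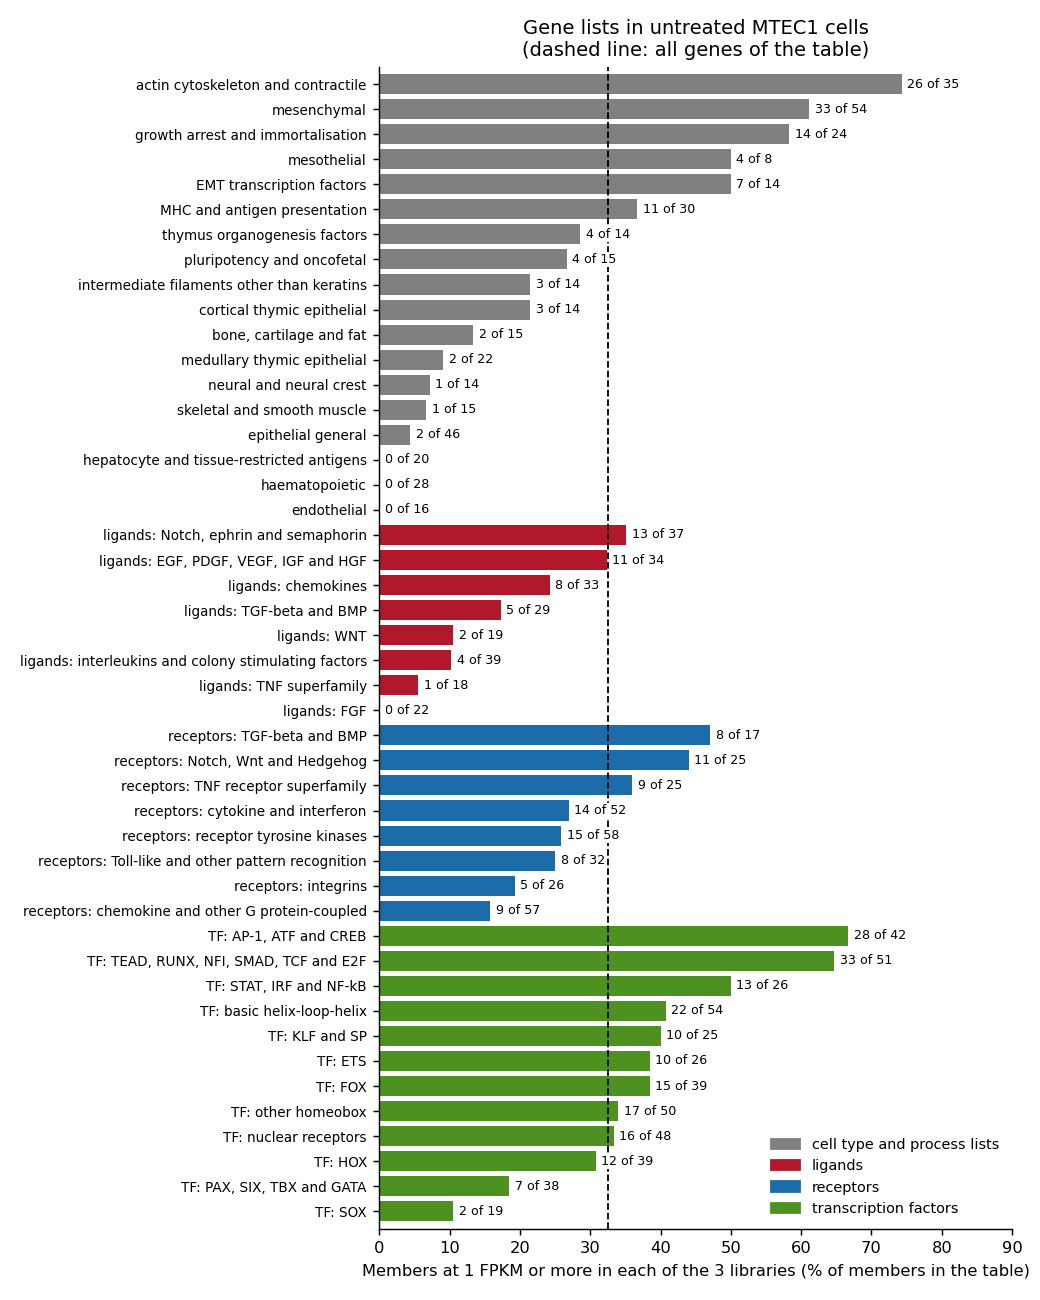
Share of each list's members that reached 1 FPKM in each of the 3 untreated libraries, in percent of the members in the mRNA table, with the counts beside the bars and the dashed line at the 32.5% of all genes. The epithelial, endothelial and haematopoietic bars lie between 0 and 4.35%, and the mesenchymal bar reaches 61.1%.

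The most abundant mRNAs were those of the cytoskeleton, translation, glycolysis and histones. The 10 genes of highest mean held 6.52%, 6.47% and 7.24% of the summed FPKM, and the 100 highest held 25.4%, 26.3% and 28.0%. Actb, cytoplasmic actin, led with 1892, 1911 and 1761 FPKM, a mean of 1855 ± 81.6 (SD, n = 3). Eef1a1, the factor that delivers tRNA to the ribosome, had 1396, 1474 and 2674 FPKM and was high in library 3. Its summed value came from a pair of transcripts: the full-length ENSMUST00000042235 had 1246, 1332 and 1137 FPKM and the shorter ENSMUST00000156988 had 150, 142 and 1537 FPKM, so the excess in library 3 lay in the shorter one.

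Ribosomal protein genes made up 8.09%, 8.19% and 8.70% of the summed FPKM. Rplp1 and Rplp0, proteins of the ribosomal stalk, had 858, 881 and 991 FPKM and 719, 696 and 784 FPKM. Among enzymes of glycolysis, Pkm, pyruvate kinase, had 703, 733 and 728 FPKM, Eno1, enolase, 533, 579 and 572 FPKM and Ldha, lactate dehydrogenase, 554, 619.9 and 596 FPKM, each within a narrow band. Hsp90ab1, a chaperone, had 711, 726 and 730.4 FPKM and Ptma, prothymosin alpha, 755, 789 and 841 FPKM. Lgals1, a galectin, had 535, 566 and 574 FPKM and Mif, a cytokine, 402, 431 and 457 FPKM. S100a6, a calcium-binding protein, had 152, 521 and 806 FPKM and spread the widest of the 30. Rpl8, a ribosomal protein, had 156, 474 and 647 FPKM and also differed between libraries.

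Replication-dependent histone genes with symbols of the H2bc12, H3c11 and H4c6 kind made up 6.32%, 6.78% and 6.74% of the summed FPKM. Histone genes under other symbols, such as Hist1h4m at a mean of 320 FPKM and Hist1h2bp at 267 FPKM, were not counted, so the share of the class is higher. Of the 30 genes of highest mean, 7 were replication-dependent histone genes. Their mRNAs end in a stem-loop without a poly(A) tail, and libraries made by removing ribosomal RNA, as these were, keep them. H2bc12 had 522, 654 and 675 FPKM and H3c11 537, 603 and 592 FPKM. H4c6, H4c8 and H4c14 encode the same protein from near-identical genes, so the division of reads among such copies is uncertain.

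**Figure D3:**
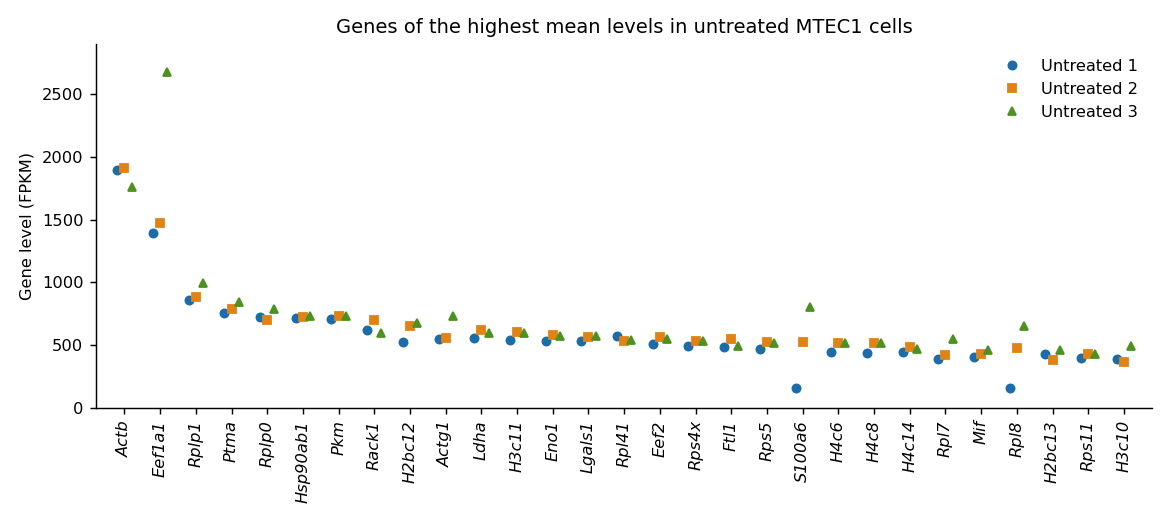
Gene level in FPKM on a linear axis from 0 for genes among the 30 of highest mean, with 1 point per untreated library. Actb and Eef1a1 stand above the others, and Eef1a1, S100a6 and Rpl8 show wide gaps between libraries.

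Actin-binding genes were widely expressed, with 26 of 35 members of the cytoskeletal list (74.3%) against 32.5% of all genes. Pfn1, profilin, had 274, 306 and 299.8 FPKM, Tagln2 107, 119.5 and 112 FPKM and Flnc, a filamin otherwise typical of muscle, 87.5, 88.7 and 87.7 FPKM. Tln1, talin, which couples integrins to actin, had 66.1, 68.5 and 71.9 FPKM and Vcl, vinculin, 39.9, 38.6 and 42.5 FPKM. All of them varied little between libraries. Tpm1, a tropomyosin, did not: it had 31.5, 12.4 and 4.79 FPKM. Acta2, smooth muscle actin, was lowest in library 1. Intermediate filaments other than keratins were Vim and the lamins Lmnb1, at 25.7, 27.3 and 27.8 FPKM, and Lmna, at 4.18, 7.95 and 3.67 FPKM, with 3 of 14 genes expressed.

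Of 231 genes for secreted and membrane-bound ligands 44 were expressed (19.05%), against 32.5% of all genes, with 10 at 10 FPKM or more in each library. Of 33 chemokines 8 were expressed. Cxcl5, which attracts neutrophils, had 30.6, 32.6 and 31.6 FPKM and Cxcl1, with the same receptor, 10.1, 9.22 and 11.6 FPKM. Ccl2, which attracts monocytes, had 13.03, 11.6 and 11.6 FPKM, and the interferon-inducible Cxcl10 had 10.4, 12.03 and 12.9 FPKM. Ccl5, which attracts T cells, had 5.68, 5.14 and 7.43 FPKM. All 5 were close in the 3 libraries. Cxcl12 was listed at 0 in libraries 1 and 2 and had 0.0166 FPKM in library 3, and the medullary chemokine Ccl21a was listed at 0 throughout.

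Among cytokines, 4 of 39 interleukins and colony stimulating factors, a list that holds Mif, were expressed (10.3%), against 32.5% of all genes. Csf1, the growth factor of macrophages, had 8.52, 29.1 and 30.2 FPKM, lower in library 1 than in the other two. Lif, a cytokine of the IL-6 family, had 5.201, 5.96 and 0.793 FPKM and missed the threshold in library 3. In the TNF superfamily 1 of 18 ligands was expressed, Tnfsf9, the ligand of 4-1BB, at 16.4, 17.8 and 15.8 FPKM. None of 22 FGF genes was expressed.

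Growth factors and guidance cues came next. Tgfb1, the best known TGF-beta, had 13.4, 14.9 and 15.3 FPKM, one of 5 of 29 TGF-beta and BMP ligands expressed, while Bmp4 had 2.67, 0 and 4.48 FPKM and was listed at 0 in library 2. Ereg, epiregulin, a ligand of the EGF receptor family, had 10.999, 11.2 and 10.8 FPKM, and Grn, progranulin, 10.5, 13.8 and 18.6 FPKM. Of 37 Notch, ephrin, semaphorin and related cues 13 were expressed (35.1%), close to the 32.5% of all genes. Slit3, the ligand of Robo receptors, had 18.1, 19.1 and 18.6 FPKM and Efnb2, ephrin-B2, 13.1, 12.7 and 12.4 FPKM, both even across libraries. Jag1, a Notch ligand, had 3.395, 3.03 and 2.204 FPKM. Of 19 Wnt genes 2 were expressed, Wnt4 at 2.704, 2.296 and 2.74 FPKM and Wnt9a at 2.03, 2.37 and 2.76 FPKM.

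Receptor genes were expressed in 79 of 291 cases (27.1%), near the 32.5% of all genes. Of 58 receptor tyrosine kinases 15 were expressed. Axl, the receptor of Gas6 and protein S, was the most abundant with 85.5, 107 and 99.8 FPKM, a mean of 97.3 ± 10.8 (SD, n = 3). Its ligands were expressed too, Gas6 at 4.67, 4.39 and 6.24 FPKM and Pros1, which encodes protein S, at 5.47, 5.46 and 5.74 FPKM. Epha2, an ephrin receptor, had 43.04, 45.7 and 45.9 FPKM, and Met, the receptor of hepatocyte growth factor, 24.6, 26.3 and 30.3 FPKM. Ddr2, which binds fibrillar collagen, had 13.8, 15.9 and 18.1 FPKM. Pdgfra, the receptor of PDGF-A, had 5.45, 2.46 and 0.787 FPKM, and Ryk, a Wnt co-receptor, 28.1, 1.26 and 39.7 FPKM. Pdgfra was under 1 FPKM in library 3, and Ryk was low in library 2.

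Of 25 TNF receptors 9 were expressed (36%), close to the 32.5% of all genes. Tnfrsf1a, the main TNF receptor, had 48.3, 50.6 and 51.3 FPKM and Tnfrsf12a, the receptor of TWEAK, 32.9, 41.1 and 34.3 FPKM, beside Ltbr. Smo, the transducer of Hedgehog signals, had 51.8, 54.7 and 54.1 FPKM and stood above Fzd1, a Wnt receptor, with 13.3, 13.9 and 13.9 FPKM. F2r, the thrombin receptor, had 62.6, 64.03 and 66.4 FPKM and led the 9 expressed members of 57 G protein-coupled receptors. Notch2 had 15.7, 30.2 and 0 FPKM and was listed at 0 in library 3, where a noncoding transcript of the same gene, ENSMUST00000198324, had 10.9 FPKM, against 0.152 FPKM in library 1 and 0.119 FPKM in library 2.

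Integrins bind the matrix, and 5 of 26 genes were expressed (19.2%), against 32.5% of all genes. Itgb5 had 28.8, 29.01 and 30.98 FPKM, Itga3, a laminin receptor chain, 25.2, 27.9 and 27.8 FPKM and Itga5, the fibronectin receptor chain, 14.99, 15.5 and 11.2 FPKM. Itgb1, the beta chain both alpha chains pair with, had only 2.07, 1.45 and 2.12 FPKM. Of 52 cytokine and interferon receptors 14 were expressed (26.9%). Ifnar1, the type I interferon receptor chain, had 10.6, 11.01 and 11.2 FPKM. Il6st, the shared IL-6 family receptor chain gp130, had 6.06, 5.803 and 5.24 FPKM. Of 32 pattern recognition genes 8 were expressed (25%), against 32.5% of all genes. Tlr4, the receptor of bacterial lipopolysaccharide, had 3.41, 7.97 and 1.41 FPKM and varied, while its partner Ly96, MD-2, had 3.83, 3.8005 and 3.96 FPKM and did not. Tlr3, which senses double-stranded RNA, had 2.46, 2.37 and 2.54 FPKM, and Tlr2 had 0.00224, 1.63 and 0 FPKM.

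Transcription factors were expressed in 185 of 457 cases (40.5%), against 32.5% of all genes. The widest coverage was in the AP-1, ATF and CREB list, with 28 of 42 members, and in the list of TEAD, RUNX, NFI, SMAD, TCF and E2F factors, with 33 of 51. The narrowest was in the SOX list, with 2 of 19. Ctnnb1, beta-catenin, had 69.3, 69.1 and 69.5 FPKM and Hif1a, the hypoxia factor, 43.96, 43.1 and 44.7 FPKM. Id1, an inhibitor of basic helix-loop-helix factors, had 70.5, 74.9 and 72.7 FPKM, and Srebf2, which controls sterol synthesis, 68.7, 78.1 and 78.2 FPKM. Atf4, the factor of the integrated stress response, had 59.9, 73.9 and 75.05 FPKM. Sox4 had 32.2, 33.1 and 33.8 FPKM, and Stat6, which relays IL-4 and IL-13 signals, 28.3, 29.95 and 29.7 FPKM.

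Some of the expressed factors are best known as regulators of development. Gata4, a factor of heart, gonad and foregut mesoderm and endoderm, had 11.8, 11.6 and 12.7 FPKM. Tbx15 and Tbx18, T-box factors of mesenchyme, had 6.02, 5.76 and 6.07 FPKM and 5.62, 5.69 and 5.23 FPKM. Foxf1, a factor of lateral plate mesoderm, had 9.55, 9.56 and 8.85 FPKM and Foxd1, a factor of stromal progenitors in kidney, 5.72, 5.54 and 6.03 FPKM. Each of these 5 lay within a narrow band over the 3 libraries. The FOX list had 15 of 39 members expressed and the list of other homeobox factors 17 of 50, both near the 32.5% of all genes. Nr2f2, the nuclear receptor COUP-TFII of mesenchyme and veins, had 16.7, 16.5 and 21.9 FPKM. Rarg, a retinoic acid receptor, had 23.8, 50.1 and 48.7 FPKM, lower in library 1. The list of paired-box, Sine oculis, T-box and Gata families as a whole had 7 of 38 members expressed, against 32.5% of all genes. Of the 38, 20 were listed at 0 in all 3 libraries, against 35.6% of all genes.

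HOX genes record position along the body axis, and 12 of 39 were expressed (30.8%), close to the 32.5% of all genes. They were 4 of 11 in the A cluster, 4 of 10 in B, 3 of 9 in C and 1 of 9 in D. Hoxb9 was highest with 13.9, 12.04 and 15.2 FPKM, followed by Hoxc13 with 8.24, 8.51 and 8.697 FPKM. Hoxa10 had 4.22, 4.21 and 4.24 FPKM, alike in the 3 libraries. Hoxd8 had 2.96, 3.45 and 3.69 FPKM and was the only expressed gene of its cluster. Hoxa3, which the third pharyngeal pouch and its thymus need, had 0.213, 1.33 and 0.0266 FPKM and passed 1 FPKM in library 2 alone. The 8 genes listed at 0 in all 3 libraries were Hoxb1 and Hoxd1 in the anterior group and Hoxa11, Hoxa13, Hoxc11 and Hoxd11 to Hoxd13 in the posterior groups. Hoxb13, a posterior gene, was expressed at 1.02, 1.09 and 1.23 FPKM. At a threshold of 5 FPKM, 2 of the 39 genes were expressed, against 3497 of all 21771 genes, so the HOX share was the lower one there.

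**Figure D4:**
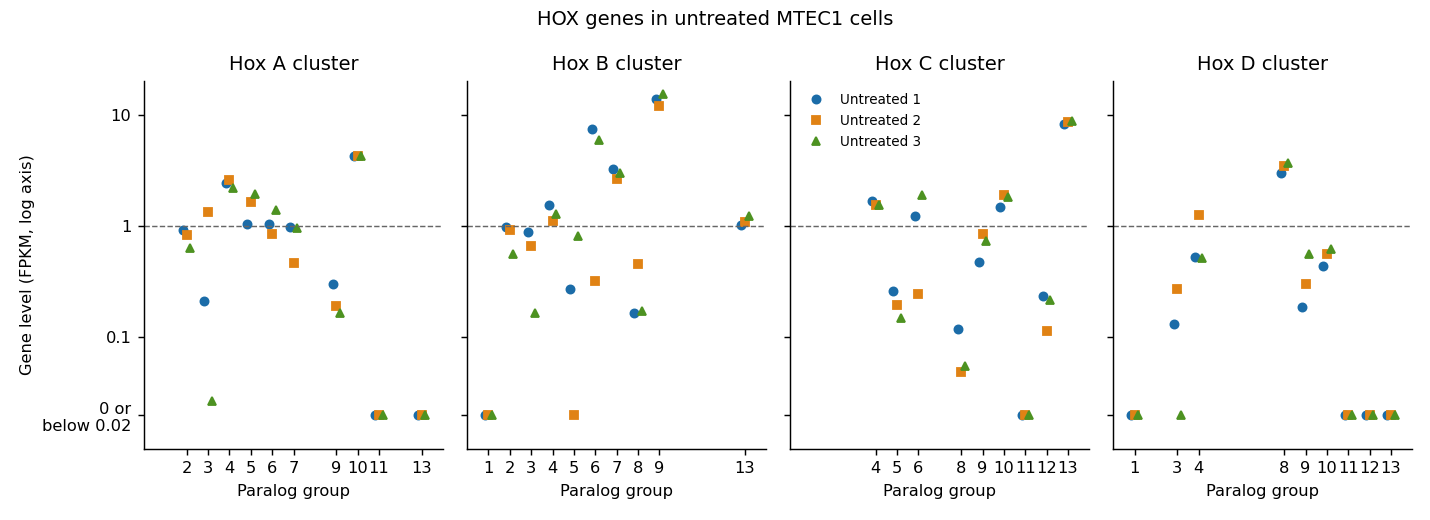
Gene level in FPKM on a log axis by paralog group for genes of the 4 HOX clusters, with 1 point per untreated library and the dashed line at 1 FPKM. Hoxb9 and Hoxc13 are the highest, Hoxa3 and Hoxb6 split between libraries, and Hoxb1, Hoxd1, Hoxa11, Hoxa13, Hoxc11 and Hoxd11 to Hoxd13 lie on the floor that stands for 0.

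Genes that present antigen matter in thymic epithelium, and 11 of 30 were expressed (36.7%), close to the 32.5% of all genes. B2m, the light chain of MHC class I, had 85.1, 84.98 and 88.04 FPKM, and Tapbp, tapasin, which loads peptides, 22.6, 25.1 and 24.1 FPKM. The heavy chains were lower: H2-D1 had 3.72, 5.45 and 5.16 FPKM and H2-K1 0.192, 3.96 and 0.584 FPKM. H2-K1 passed 1 FPKM in library 2 alone. These class I genes are close in sequence, so their division of reads is uncertain. Nlrc5, the class I transactivator, had 2.02, 1.71 and 2.697 FPKM. The class II genes H2-Aa, H2-Ab1 and Cd74 had at most 0.216 FPKM in any library.

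Of 24 genes of growth arrest, proliferation and immortalisation 14 were expressed (58.3%), against 32.5% of all genes. Another 6 reached 1 FPKM in some libraries and not in others. Listed at 0 throughout were 3 of the 24, Cdkn2a among them, against 35.6% of all genes. Pcna, the sliding clamp of DNA replication, had 239, 239 and 238 FPKM, a mean of 238 ± 0.288 (SD, n = 3), one of the steadiest genes in the table. Mki67, a marker of cycling cells, had 5.51, 8.204 and 6.84 FPKM and Myc 13.7, 14.1 and 13.6 FPKM. Cdk4, the kinase of the G1 phase, had 56.8, 105 and 74.7 FPKM. Cdkn1a, the p53 target p21, had 81.7, 71.8 and 55.5 FPKM, and Cdkn1b, p27, 21.8, 21.9 and 18.8 FPKM. Trp53, which encodes p53, had 6.36, 40.9 and 9.44 FPKM: its transcript ENSMUST00000108657 had 1.16, 40.4 and 0 FPKM and ENSMUST00000171247 had 4.34, 0.246 and 9.44 FPKM. Tert, the catalytic subunit of telomerase, had 0.672, 1.08 and 1.12 FPKM and missed the threshold in library 1.

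Cdkn2a, which encodes the tumour suppressors p16 and p19ARF and is often lost or silenced in lines that grow without limit, was listed at 0 in all 3 libraries. The same held for its neighbours on chromosome 4, Cdkn2b, which encodes p15, Mtap, a methionine salvage enzyme, and Dmrta1. This stretch, from 89137122 to 89694772 as deposited, was picked after the values were seen. All 5 mRNA transcripts inside it were listed at 0, as were 2 of 3 contained lncRNA transcripts. The third, an unnamed transcript, had 0.591, 0.766 and 1.38 FPKM. Klhl9, before the stretch, had 43.4, 45.5 and 42.5 FPKM, and Ifne, the nearest gene with signal on that side, had 4.62, 2.73 and 3.2002 FPKM. Elavl2, after it, had 0.5302, 0.441 and 0.492 FPKM.

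Signal under the name Cdkn2b was present in the lncRNA table. Assembled transcripts, both on the minus strand and both reaching 89311030 near the annotated start of Cdkn2b, run out to 88869160 and to 88882281, beyond Cdkn2a and Mtap, the first past Ifne and the second stopping short of it. They had 4.53, 2.99 and 2.44 FPKM and 5.32, 2.81 and 2.85 FPKM. The table gives no exons, so which parts of this span were read is not known. Of 2857 runs of neighbouring genes at 0 in the table, 415 held 4 or more genes, and the longest held 171. Which kinds of genes make up these runs was not examined, so the count is no like-for-like measure for this stretch. The state of the DNA at this locus was not measured, and no cause was tested.

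The 3 libraries were close for most genes and far apart for some. The coefficient of variation, SD over mean, had a median of 12.8% over the 7083 expressed genes. It was under 10% for 2971 genes (41.9%) and over 50% for 751 genes (10.6%). Among 2604 genes with a mean of 10 FPKM or more the median was 8.35%, and 187 of them (7.18%) had a highest library more than 4 times the lowest. The lowest library was library 1 in 71 of these, library 2 in 53 and library 3 in 63. A tie went to the first library, as for Capza2 and Abcf2 at 0 in libraries 1 and 3. The highest was library 1 in 53, library 2 in 70 and library 3 in 64. Each library was thus the lowest for some of these genes and the highest for others. The 187 genes were classed by whether the middle library lay nearer to the highest or to the lowest, as a ratio. By this rule 131 had 2 high libraries and 1 low, and 56 had 1 high. A gene with a lowest value of 0 and any middle value above 0 falls in the first class. Rps2, at 122, 0.894 and 0 FPKM, was counted there with 1 high library, so the split is only a rough one. Another view is that 32 genes were listed at 0 in one library and at 10 FPKM or more in another.

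Among the 12 genes of widest spread were a cytoskeletal, a translation and a protein quality control gene. Capza2, an actin capping protein, had 0, 32.7 and 0 FPKM, Abcf2, an ATP-binding protein of translation, 0, 30.5 and 0 FPKM and Vcp, the p97 segregase, 0.129, 0.101 and 72.1 FPKM. Each was measured in 1 library and at or near 0 in the other two. Rps2, a ribosomal protein, had 122, 0.894 and 0 FPKM, and its noncoding transcript ENSMUST00000122809 had 22.2, 75.6 and 262 FPKM, in the opposite order. H2bc18 had 0.0775, 219 and 0.0762 FPKM and H2bc14 0.8298, 1.05 and 155 FPKM, both histone genes with near-identical copies. Lsm3, Rps27, Srpr, Nucks1, Ube2v1 and Fmc1 completed these 12 genes.

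Top2a, a topoisomerase of cycling cells, had 0.118, 16.3 and 0.414 FPKM, and Tuba1b, an alpha tubulin, 84.7, 6.19 and 5.17 FPKM. The steadiest genes were Gtf3c3, Wdr5, Pcna, Pih1d1, Rnf4, Otub1, Dpysl2 and Lbh. Gtf3c3, a factor of RNA polymerase III, had 13.9 ± 0.009904 FPKM and Wdr5, a subunit of histone methyltransferases, 30.8 ± 0.0301 FPKM (SD, n = 3).

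The spread was set beside the transcripts of each gene. Genes with 1 transcript over both tables and a mean of 10 FPKM or more had a median coefficient of variation of 5.74% (371 genes), against 9.09% for genes with several (2233 genes). The share with more than 4 times between libraries was 4.58% for genes with 1 transcript and 7.61% for genes with several. When noncoding transcripts of the same name were added, 19 of the 187 genes came under 2 times and 126 remained over 4 times. The transcript of highest level was the same in all 3 libraries for 3785 of 5245 expressed genes with several mRNA transcripts (72.2%). How the reads were assigned to transcripts was not tested here.

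**Figure D5:**
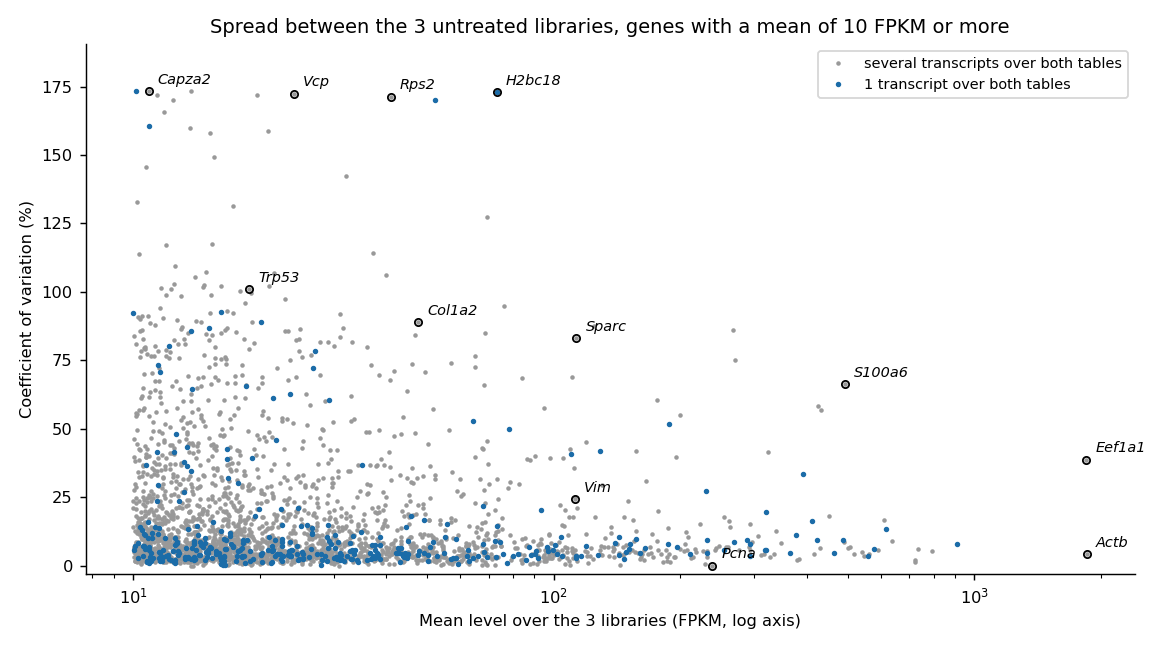
Coefficient of variation over the 3 untreated libraries in percent against the mean level in FPKM on a log axis, with 1 point per gene with a mean of 10 FPKM or more and blue points for genes with 1 transcript over both tables. Most genes lie near the bottom with a median of 8.35%, and Capza2, Vcp, Rps2 and H2bc18 lie near the top.

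Of 19825 names in the lncRNA table, 4936 were expressed (24.9%). Of these, 4314 were names that the mRNA table also holds, and 622 were of 9729 names found in the lncRNA table alone. A shared name does not make a transcript an isoform of that gene, since assembled transcripts can run far past the gene whose name they carry, as those named Cdkn2b did. The largest entry was CT010467, which held 23.9%, 35.7% and 30.4% of the summed FPKM of that table. It lies on chromosome 17 from 39842994 to 39848832 and overlaps Rn18s-rs5, a RefSeq pseudogene related to 18S ribosomal RNA. A different assembled transcript of it led in each library, with 7438 FPKM in library 1, 13370 FPKM in library 2 and 13918 FPKM in library 3. Ribosomal RNA was removed before sequencing, and how much remained was not measured here.

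Of the names found in that table alone, those with the next highest means were of mixed kinds. Rpph1, the RNA of RNase P, had 563, 869 and 925 FPKM. Gm23472 and Gm25360, which RefSeq annotates as small nuclear RNAs, had 1776, 2521 and 1267 FPKM and 204, 127 and 2838 FPKM, the second of them high in library 3 alone. An assembled transcript under the name Gm25360 had 0, 0 and 2025 FPKM. It runs on chromosome 1 from 72226240 to 72255185 and also overlaps Gm23472 and the lncRNA D230017M19Rik. The value under the name Gm25360 is therefore not the level of a single small RNA. AI506816, which RefSeq annotates as a lncRNA, had 1100.5, 1128 and 1186 FPKM, and 1110038B12Rik and 9330111N05Rik, also lncRNAs, had 128, 129 and 124 FPKM and 87.5, 115 and 35.3 FPKM. RefSeq annotates Gm5559, Gm11338, Gm12715 and Ubb-ps as pseudogenes. Gm5559 had 222, 24.3 and 300.1 FPKM, Gm11338 148, 119 and 191 FPKM, Gm12715 158, 183 and 24.5 FPKM and Ubb-ps 77.3, 47.1 and 112 FPKM. Gm5559 was low in library 2 and Gm12715 in library 3. Malat1, a nuclear lncRNA that most cells make in quantity, had 403, 9.93 and 298 FPKM and was low in library 2. Neat1, the scaffold of paraspeckles, had 3.702, 4.15 and 4.55 FPKM. Gas5 and Snhg1, hosts of small nucleolar RNAs, had 62.3, 66.5 and 59.4 FPKM and 46.8, 53.4 and 60.7 FPKM. Terc, the RNA of telomerase, had 46.4, 52.5 and 1.12 FPKM, low in library 3. Mir17hg, the host of the miR-17 to miR-92 cluster, had 9.22, 9.24 and 9.19 FPKM. Fendrr, a lncRNA next to Foxf1, had 14.2, 12.4 and 11.3 FPKM, and Foxf1 itself was expressed.

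Of 43 lncRNAs in a list picked for their known abundance 30 were expressed, a count that the choice of members favours and from which nothing is read. Xist, the RNA of the inactive X chromosome, had 27.6, 14.5 and 10.2 FPKM. Of 172 genes of the Y chromosome 171 were listed at 0 in all 3 libraries, against 35.6% of all genes. The highest value of any Y gene was 0.498 FPKM, and the sex of the line was not tested. The imprinted Meg3 was listed at 0 throughout, and H19 had 0, 0.0193 and 0 FPKM. Hottip, at the posterior end of the HOX A cluster, was listed at 0 beside Hoxa13, and Hotairm1, at its anterior end, had 7.803, 5.77 and 7.01 FPKM. The 4936 expressed names of the lncRNA table had a median coefficient of variation of 21.9%, against 12.8% for the expressed mRNA genes. Of these names 4314 are also held by the mRNA table, and the comparison was not matched for level. It therefore does not show that lncRNAs as a class varied more.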

How the data were processed

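Per the labels' protocols, total RNA of the 3 untreated MTEC1 samples was freed of ribosomal RNA and read in pairs on a NovaSeq machine. HISAT2, StringTie, edgeR, cutadapt and FastQC stand in the submitters' processing notes. No version, build or strand setting is given in the sources used. The file headers call the deposited values normalized counts. They were read as FPKM deposited by the authors, because the layout is that of StringTie output, library totals differ and short transcripts rank high; this unit is inferred. Depth is unknown, which limits the precision of low values. Gene positions are as deposited, and 21195 of 21198 symbols shared with RefSeq GRCm38.p6 overlapped the RefSeq gene by position.

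The placeholder 0.0001, which filled 57.2% to 58.1% of mRNA entries and 39.1% to 40.1% of lncRNA entries, was set to 0. Transcript values were then summed by gene name (Python 3.11.15, pandas 2.3.3, numpy 2.4.6, matplotlib 3.10.9). Genes at 1 FPKM or more in each of the 3 libraries were counted as expressed. Gene sums and coefficients of variation were tested on simulated data. The 6 columns of treated libraries in these tables were not used, so there is 1 group, no contrast and no p-value.

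The members and the 50 gene lists were chosen with earlier results of these data known. Named genes were the 30 of highest mean in the mRNA table, the 12 of highest mean among names found in the lncRNA table alone, the 10 highest members of each list with its defining members at 0, and a fixed set of markers. Among genes with a mean of 10 FPKM or more, the 12 with the highest and the 8 with the lowest coefficient of variation were also named. Other genes in the text were picked after their values were seen, to show a discordant transcript, a ligand of a named receptor or a neighbour of a named gene. A few genes that these rules name are not reported here. Promoters came from RefSeq. Alternatives were other thresholds, leaving out each library, scaling to the same total, adding noncoding transcripts, other pseudocounts and using the mean.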

Additional observations from a re-analysis of the deposited data

How the results depend on the processing

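Of 98 alternatives for the main counts and summaries, 79 kept their value within the tolerance used, which was 1.5 times for a count and 1 SD between libraries for a summary, and 19 did not. For the other lists, 35 of 343 alternatives moved a count by more than that: at 5 FPKM, for example, 2 HOX genes were expressed in place of 12, 2 other homeobox factors in place of 17, 2 ETS factors in place of 10 and 1 TGF-beta or BMP ligand in place of 5. With a threshold of 5 FPKM, 3497 genes and 1235 lncRNA names were expressed, with 20 mesenchymal and 1 cortical list member, a median coefficient of variation of 7.98% and the same highest transcript in 79.9% of genes. With 0.5 FPKM the last pair of values was 14.7% and 70.3%. Adding noncoding transcripts gave 7.57% of the signal in the 10 most abundant genes, a median coefficient of variation of 14.2% and a mean Pearson r of 0.967. That r was 0.952 with a pseudocount of 0.1 and 0.860 over genes with a mean of 1 FPKM or more. Without 1 of the 3 libraries, the median coefficient of variation was 9.16% to 10.5% and the share of genes with the same highest transcript 79.6% to 80.6%, over 2 libraries each. The epithelial, medullary, endothelial and haematopoietic counts kept within 1.5 times or 1 gene under each alternative run. No paired analysis was possible because there is 1 group and no test. Depth is unknown, so a low value and a 0 cannot be told apart by counting error.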

Other observations

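In the mRNA table, 4 of 15 pluripotency and oncofetal genes were expressed (26.7%), against 32.5% of all genes. Of the 15, 7 were listed at 0 in all 3 libraries, against 35.6% of all genes. Hmga2, a chromatin protein of embryonic and tumour cells, had 13.0, 8.51 and 7.88 FPKM, and its relative Hmga1 had 42.8, 29.6 and 34.1 FPKM. Igf2bp1, an RNA-binding protein of fetal tissue, had 9.02, 8.68 and 8.33 FPKM, and Igf2bp2 had 3.93, 4.42 and 4.26 FPKM.

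Of 68 protocadherin genes 6 were expressed, against 32.5% of all genes. Pcdhb16, of the beta cluster of neural adhesion genes, had 9.69, 8.51 and 8.38 FPKM. Pcdhgc3, the C-type member of the gamma cluster, had 0.873, 15.0 and 16.2 FPKM, low in library 1. Of 1144 olfactory receptor genes none was expressed, against 32.5% of all genes. In all 3 libraries 1065 of them were listed at 0, against 35.6% of all genes, and the highest value was 1.47 FPKM.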
